A study of Mus musculus with 30 samples.

Results

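The mRNA levels of 9 genes of cellular iron handling were followed in cultured mouse osteoclasts, the multinucleated cells that resorb bone. The 9 genes were taken as a fixed list of iron uptake, storage and export genes, Tfrc, Slc11a1, Slc11a2, Steap4, Fth1, Ftl1, Slc40a1 and Hmox1, together with Ppargc1b, a coactivator gene of the mitochondrial programme. Their Ensembl identifiers were matched by name in the GENCODE M21 annotation. All 9 were present among the 45706 genes of each expression table, and all 9 were among the 12614 genes with a mean level of at least 1 TPM that were tested (TPM is a transcript share corrected for gene length). RNA came from bone marrow-derived macrophages of C57BL/6J mice that were cultured on bone slices with 25 ng/ml M-CSF, a macrophage growth factor, and 100 ng/ml RANKL, the osteoclast differentiation factor. The design asks whether gene expression of osteoclasts on bone differs with age and with loss of Terc, the RNA component of telomerase. There were 10 groups of 3 libraries each. Terc-/- cultures harvested once large multinucleated cells had appeared came from mice of 1 month and 6 months, and a second set of Terc-/- large-cell libraries of 1 month and 6 months carries the mark "519" in its titles. Wild-type large-cell cultures came from mice of 1, 6 and 20 months, and a second 1-month wild-type large-cell set carries the mark "gaiwei". Wild-type cultures harvested after 2 days of differentiation came from mice of 6 and 20 months. The labels do not say what the marks mean, and they do not say that the libraries of a group came from separate animals, so the p-values measure the spread between these libraries, which may in part be technical.

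Cells take up most of their iron as transferrin, which binds transferrin receptor 1 (Tfrc) and is carried into endosomes. There iron is reduced by metalloreductases of the STEAP family, of which Steap4 is one, and is moved into the cytosol by the divalent metal transporter DMT1 (Slc11a2). Macrophages also move metal ions out of phagosomes with the related transporter NRAMP1 (Slc11a1), and they free iron from heme with heme oxygenase 1 (Hmox1). Iron that is not used is held in ferritin, a shell of heavy chains (Fth1), which oxidise iron, and light chains (Ftl1), and iron leaves the cell through ferroportin (Slc40a1). In osteoclasts, iron uptake by transferrin receptor 1 is known to supply the mitochondria, and Ppargc1b encodes PGC-1β, a coactivator that drives the making of mitochondria in these cells.

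In GRCm38 (mm10), Tfrc (ENSMUSG00000022797) lies on the plus strand at chr16:32608920-32632794, Slc11a1 (ENSMUSG00000026177) on the plus strand at chr1:74375195-74386062 and Slc11a2 (ENSMUSG00000023030) on the minus strand at chr15:100387898-100425072. Steap4 (ENSMUSG00000012428) lies on the plus strand at chr5:7960457-7982213. The ferritin genes are Fth1 (ENSMUSG00000024661) on the plus strand at chr19:9980598-9985098 and Ftl1 (ENSMUSG00000050708) on the minus strand at chr7:45457944-45459884. Slc40a1 (ENSMUSG00000025993) lies on the minus strand at chr1:45908068-45926523 and Hmox1 (ENSMUSG00000005413) on the plus strand at chr8:75093621-75100589.

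Several of these mRNAs carry iron-responsive elements, hairpins with a CAGTGN loop that iron regulatory proteins bind when iron is scarce. Binding in the 5′ UTR blocks translation and binding in the 3′ UTR of Tfrc mRNA protects it from decay. An isoform of Slc11a2 mRNA is also known to carry an element in its 3′ UTR. The hairpins are shown because in Fth1, Ftl1 and Slc40a1 the element acts on translation, which mRNA levels do not report. The search ran on the transcript strand of annotated UTRs for C, 5 bases, CAGTGN and 5 bases that pair with the first 5, with G-T pairs allowed. It found 4 sites in the 3′ UTR of Tfrc, in exon 19, and 1 site each in the 5′ UTR, in exon 1, of Slc40a1, Fth1 and Ftl1. The sites are written 5′ to 3′ on the gene's strand from GRCm38 (mm10), with the loop in capitals.
Tfrc site 1, chr16:32631220-32631246, plus strand: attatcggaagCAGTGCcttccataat
Tfrc site 2, chr16:32631599-32631625, plus strand: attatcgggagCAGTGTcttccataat
Tfrc site 3, chr16:32631664-32631690, plus strand: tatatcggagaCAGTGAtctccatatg
Tfrc site 4, chr16:32631711-32631737, plus strand: attatcgggaaCAGTGTttcccataat
Fth1, chr19:9982733-9982759, plus strand: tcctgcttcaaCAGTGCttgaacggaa
Ftl1, chr7:45459780-45459806, minus strand: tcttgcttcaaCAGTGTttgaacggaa
Slc40a1, chr1:45925466-45925492, minus strand: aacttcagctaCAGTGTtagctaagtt
The same letters were found in the 5′ UTR of 31 of 21866 protein-coding genes (0.142%) and in the 3′ UTR of 129 (0.59%). The other 5 members, Slc11a2 among them, held no match in the annotated UTRs, which says only that these letters are not in those windows.

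The 30 libraries were checked against their labels before the members were compared. The osteoclast genes Acp5 and Ctsk stood at 1860.0 to 12058 TPM and 1499 to 11089 TPM in the 15 unmarked large-cell libraries, but at 70.0 to 147 TPM and 23.5 to 154 TPM in the 9 libraries with a 519 or gaiwei mark, although these are also labelled as large-cell. In the 2-day libraries Acp5 was at 16.9 to 186 TPM. The marked libraries are therefore called by their mark throughout. One library, the 6-month wild-type large-cell replicate 2, stood apart from its group: its correlation with the other libraries of its group over genes was 0.909, against 0.932 to 0.991 in the other 29 libraries, and results that rest on it are given with and without it. The 3 unmarked 1-month wild-type libraries showed a female pattern (Xist at 46.6 to 84.1 TPM and Eif2s3y listed at 0) and the other 27 a male one (Xist at most 0.254 TPM and Eif2s3y at 12.1 to 82.0 TPM). Within the male pattern, Eif2s3y was at 12.1 to 19.2 TPM in the unmarked and 519-marked 1-month Terc-/- libraries. In the remaining male-pattern groups it was at 40.8 to 82.0 TPM, a split whose cause was not tested. The split coincides with age between 6-month and 1-month Terc-/- libraries, marked or not, and with genotype between the marked 1-month groups. In those comparisons the split and the named difference cannot be told apart. The labels give no sex, so in every comparison with the unmarked 1-month wild-type group the sex pattern and the named difference cannot be told apart. Terc itself was listed above 0 in only 3 wild-type libraries, at most 1.13 TPM, which is too low to check the genotype. Erythroid marker genes, a possible source of iron genes, summed to at most 1.26 TPM over 8 genes in any library. The files give TPM without read counts, so the sequencing depth is unknown.

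The 9 members covered a wide range of levels, on the TPM scale that is corrected for transcript length. Fth1 and Ftl1 were each among the 10 most abundant genes in 29 of 30 libraries, with 8671 to 53776 TPM for Fth1 and 7957 to 34060.2 TPM for Ftl1. Hmox1 followed at 492 to 6731 TPM, then Slc11a1 at 74.1 to 686 TPM and Tfrc at 20.7 to 482 TPM. Slc11a2 (15.7 to 70.3 TPM), Slc40a1 (4.16 to 29.1 TPM), Ppargc1b (0.376 to 11.8 TPM) and Steap4 (0 to 13.4 TPM) were lower. Both ferritin genes have near-identical copies in the genome, and how the authors' counting treated shared reads is not stated, so their levels are uncertain by those reads; the copy Ftl1-ps1 averaged 42.3 to 173 TPM over the groups.

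**Figure D1:**
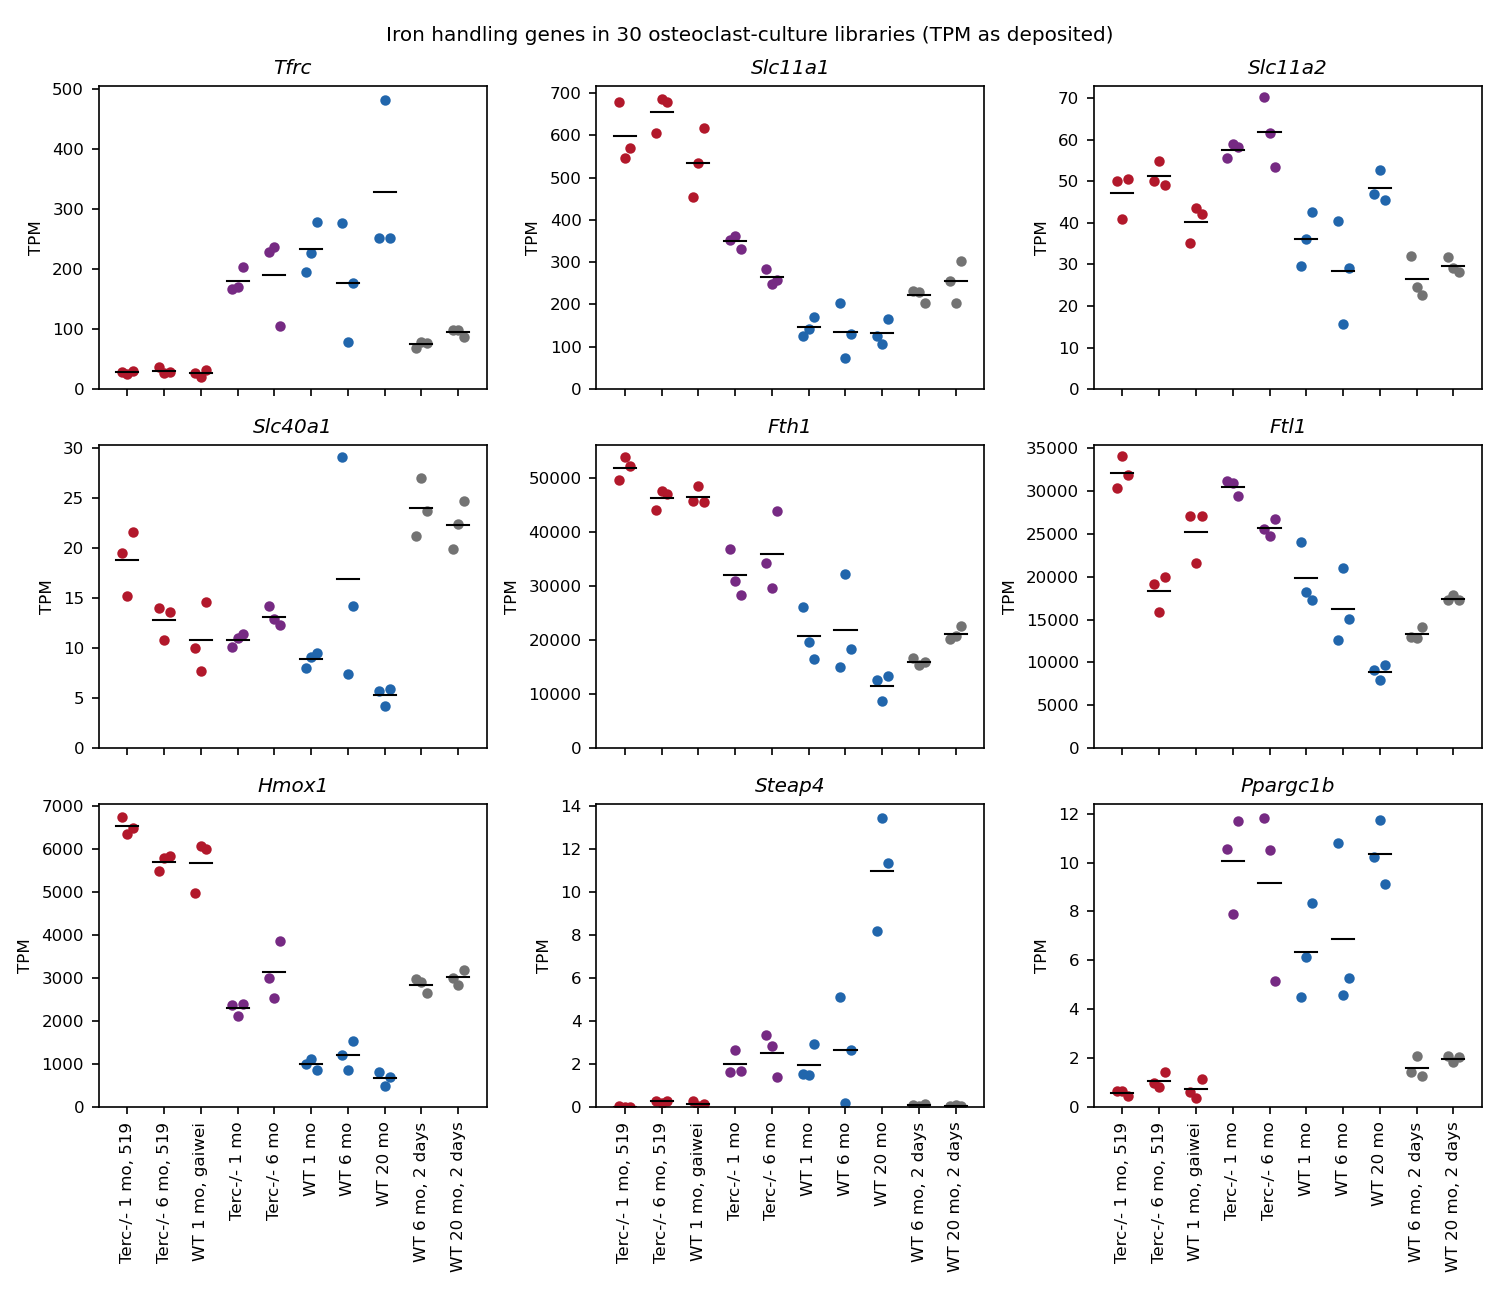
Deposited TPM of each of the 9 iron handling genes (y axis, linear from 0) in every library (points) of the 10 groups (x axis), with a bar at the group mean of 3 libraries. The group means of Hmox1 and Slc11a1 are highest and those of Tfrc and Ppargc1b lowest in the 3 groups with a 519 or gaiwei mark, and Slc40a1 is lowest in 20-month wild-type large-cell libraries (4.16 to 5.96 TPM).

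Together the 2 ferritin mRNAs made up a sizeable share of all transcripts, and the share differed between groups. It was 8.40% ± 0.39 in 519-marked 1-month Terc-/-, 7.17% ± 0.15 in gaiwei-marked wild-type, 6.45% ± 0.21 in 519-marked 6-month Terc-/-, 6.25% ± 0.52 in 1-month Terc-/- and 6.16% ± 0.83 in 6-month Terc-/- libraries (SD, n = 3 each, as for all group values here). In wild-type large-cell libraries it was 4.05% ± 0.85 at 1 month, 3.81% ± 1.35 at 6 months and 2.04% ± 0.34 at 20 months, and in 2-day libraries 2.92% ± 0.10 at 6 months and 3.86% ± 0.12 at 20 months. The ratio of Fth1 to Ftl1 in TPM lay between 1.04 ± 0.07 in 1-month wild-type and 1.39 ± 0.23 in 6-month Terc-/- libraries among the unmarked groups. In the marked groups it was 1.62 ± 0.03 (1-month Terc-/-), 1.87 ± 0.33 (wild-type) and 2.55 ± 0.38 (6-month Terc-/-), so the group means of the ratio were highest in the marked groups. Single libraries overlapped: unmarked 6-month Terc-/- replicate 4 had a ratio of 1.643, above the 519-marked 1-month libraries (1.579 to 1.637).

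**Figure D2:**
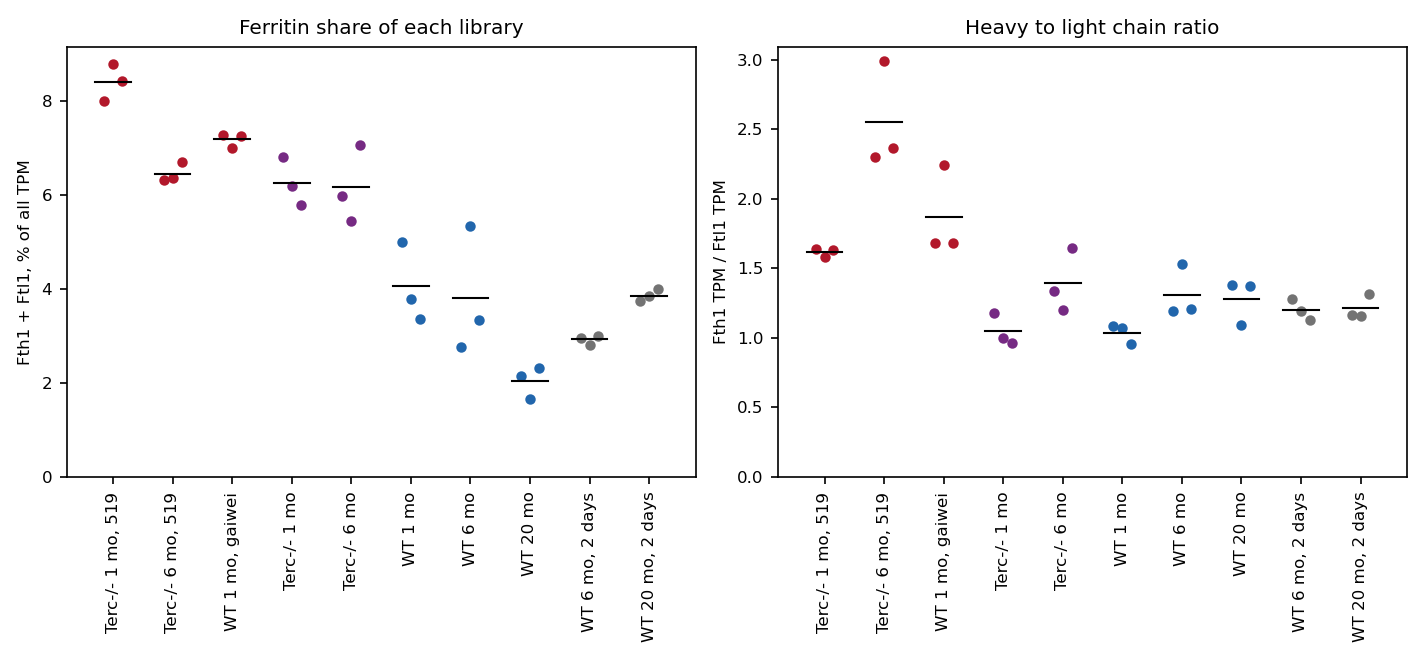
Left, Fth1 and Ftl1 together as a percentage of all TPM, and right, the ratio of Fth1 to Ftl1 TPM, for every library (points) of the 10 groups with the group mean as a bar. Mean shares run from 2.04% in 20-month wild-type large-cell libraries to 8.40% in 519-marked 1-month Terc-/- libraries.

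Large-cell cultures were first set against 2-day cultures of wild-type mice, which asks how iron genes differ between early and large multinucleated cells. At 20 months Tfrc, Slc11a2, Steap4 and Ppargc1b rose and Slc11a1, Hmox1, Fth1, Ftl1 and Slc40a1 fell in large-cell cultures, the fall of Fth1 by a call that leaving out any 1 of the 20-month libraries compared ended. At 6 months Tfrc, Steap4 and Ppargc1b rose and Hmox1 fell. At 6 months Slc11a2, Fth1 and Ftl1 were also called higher and Slc11a1 lower, but each of these 4 calls was lost when any of several single libraries was left out. Fitted on the 6-month large-cell and 2-day groups alone, 2 of the 8 calls at 6 months stood, Tfrc and Ppargc1b. Changes are log2 differences of TPM after trimmed-mean scaling, with 1 TPM added, which understates the change of low genes, and a gene was called at an adjusted p under 0.05 in limma (Benjamini-Hochberg over the 12614 genes). Ranges and overlaps of libraries are given in deposited TPM unless scaling is named. Scaling can part groups that overlap in TPM, or the reverse. At 6 months 6 members were called higher and 2 lower, where 49.9% of all tested genes were called (25% higher and 24.9% lower). At 20 months 4 were called higher and 5 lower, where 36.6% of all genes were called (17% higher and 19.6% lower). The fit shares its spread over all 10 groups. All 9 osteoclast markers were called higher in large-cell cultures at each age.

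Among the uptake genes, Tfrc had 277, 78.0 and 177 TPM in 6-month large-cell libraries, against 69.0, 78.1 and 77.0 TPM in 6-month 2-day libraries. At 20 months it had 252, 482 and 253 TPM in large-cell libraries, against 98.6, 99.2 and 86.2 TPM in 2-day libraries. In deposited TPM the groups overlapped at 6 months through the low replicate 2 and were apart at 20 months. After scaling the groups were apart at each age. The rise was 1.46 ± 0.25 (log2 ± SE, limma adjusted p = 6.95e-05) at 6 months and 1.79 ± 0.25 (adjusted p = 5.07e-06) at 20 months. Slc11a2, the endosomal iron transporter, had 40.5, 15.7 and 29.0 TPM in large-cell and 32.1, 24.6 and 22.7 TPM in 2-day libraries at 6 months, an overlap with a scaled difference of 0.41 ± 0.14 (limma adjusted p = 0.0190). At 20 months it had 46.9, 52.7 and 45.6 TPM in large-cell libraries, against 31.8, 29.1 and 28.2 TPM in 2-day libraries, without overlap (0.76 ± 0.14, adjusted p = 0.000129). The 6-month call on Slc11a2 was lost with TPM as deposited (0.02, adjusted p = 0.942) and without large-cell replicates 1 or 4 or 2-day replicates 2 or 3 (adjusted p = 0.0510 to 0.129). The metalloreductase gene Steap4 was nearly absent at 2 days: it had 5.12, 0.173 and 2.66 TPM in large-cell and 0.102, 0.0629 and 0.164 TPM in 2-day libraries at 6 months, and 8.20, 13.4 and 11.3 TPM in large-cell and 0.0323, 0.0744 and 0.0295 TPM in 2-day libraries at 20 months. All 6 large-cell libraries lay above all 6 of the 2-day libraries. Its rise was 1.39 ± 0.32 at 6 months (adjusted p = 0.00110), or 2.00 without replicate 2, a call lost in the fit of the 2 groups alone (adjusted p = 0.117). It was 3.27 ± 0.32 at 20 months (adjusted p = 2.12e-08).

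Slc11a1, the phagosomal transporter, went the other way from its relative Slc11a2. It had 202, 74.1 and 131 TPM in large-cell and 233, 229 and 204 TPM in 2-day libraries at 6 months. The groups did not overlap in deposited TPM but did after scaling, and the scaled difference was small (−0.41 ± 0.17, limma adjusted p = 0.0439). That call was lost without large-cell replicate 2 (−0.27, adjusted p = 0.226) or 4, and without 2-day replicate 1 or 2 (adjusted p = 0.0777 to 0.107). At 20 months Slc11a1 had 126, 106 and 167 TPM in large-cell and 257, 203 and 303 TPM in 2-day libraries, a fall without overlap (−0.86 ± 0.17, adjusted p = 0.000238).

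The ferritin genes differed in direction between the ages. Fth1 had 15008, 32224 and 18228 TPM in large-cell and 16596, 15281 and 15954 TPM in 2-day libraries at 6 months. Ftl1 had 12594, 21048 and 15115 TPM in large-cell and 12938, 12808 and 14126 TPM in 2-day libraries. Both sets overlapped, and the highest value in each was the large-cell replicate 2 that stood apart. The scaled differences were 0.78 ± 0.32 for Fth1 (limma adjusted p = 0.0473) and 0.67 ± 0.26 for Ftl1 (adjusted p = 0.0341). Without that library they were 0.23 for each gene (adjusted p = 0.478 and 0.347), and with TPM as deposited 0.37 and 0.26 (adjusted p = 0.120 and 0.123). Leaving out any 1 of the 2-day libraries also ended both calls (adjusted p = 0.0512 to 0.103). At 20 months Fth1 had 12509, 8671 and 13361 TPM in large-cell and 20149.9, 20639.5 and 22648 TPM in 2-day libraries. Ftl1 had 9064, 7957 and 9742 TPM in large-cell and 17253, 17809 and 17233 TPM in 2-day libraries. All 3 large-cell libraries lay below all 3 of the 2-day libraries for each gene. Ftl1 fell (−0.89 ± 0.26, adjusted p = 0.00797). For Fth1 the difference was −0.82 ± 0.32 (adjusted p = 0.0495), close to the threshold, and leaving out any 1 of the 6 libraries ended that call (−0.60 to −0.89, adjusted p = 0.0615 to 0.223). With the 6-month large-cell replicate 2 left out of the shared fit it was called (−0.82, adjusted p = 0.00353).

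The export gene Slc40a1 had 29.1, 7.39 and 14.2 TPM in large-cell and 21.3, 27.0 and 23.8 TPM in 2-day libraries at 6 months. The large-cell values spanned those of the 2-day libraries, and the difference was not called (−0.29, 95% interval −0.69 to 0.11, adjusted p = 0.218). It was called without large-cell replicate 1 (−0.62, adjusted p = 0.00330) and with TPM as deposited (−0.67, adjusted p = 0.0444). At 20 months Slc40a1 had 5.67, 4.16 and 5.96 TPM in large-cell and 19.9, 22.4 and 24.7 TPM in 2-day libraries. The groups were far apart, and the fall was −1.80 ± 0.19 (adjusted p = 1.10e-07), 0.288-fold.

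Hmox1, the heme-degrading enzyme, had 1207, 867 and 1535 TPM in large-cell and 2974, 2902 and 2661 TPM in 2-day libraries at 6 months. At 20 months it had 819, 492 and 687 TPM in large-cell and 2999.8, 2845 and 3189 TPM in 2-day libraries. The large-cell libraries lay below the 2-day libraries at each age without overlap. The fall was −0.87 ± 0.19 (limma adjusted p = 0.000607; 0.0569 in the fit of the 2 groups alone) at 6 months and −2.12 ± 0.19 (adjusted p = 4.64e-09) at 20 months. Ppargc1b (ENSMUSG00000033871, minus strand, chr18:61298136-61400431 in GRCm38) rose by a similar amount at each age. It had 10.8, 4.60 and 5.27 TPM in large-cell and 1.45, 2.09 and 1.26 TPM in 2-day libraries at 6 months, and 10.2, 11.8 and 9.14 TPM in large-cell and 2.09, 1.83 and 2.03 TPM in 2-day libraries at 20 months. Neither pair of groups overlapped, and the rises were 1.78 ± 0.22 (adjusted p = 8.67e-07) and 1.91 ± 0.22 (adjusted p = 2.70e-07).

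Whether the large-cell against 2-day change itself differed with age was tested as the 20-month change minus the 6-month change. It differed for 5 of 9 members, 1 higher and 4 lower, where 25.5% of all genes were called (11.2% higher and 14.3% lower). The 20-month change was lower by 1.51 ± 0.28 for Slc40a1 (−1.51, limma adjusted p = 0.000339), by 1.60 ± 0.46 for Fth1 (−1.60, adjusted p = 0.0122), by 1.56 ± 0.36 for Ftl1 (−1.56, adjusted p = 0.00295) and by 1.25 ± 0.26 for Hmox1 (−1.25, adjusted p = 0.00127), and higher for Steap4 by 1.88 ± 0.45 (adjusted p = 0.00381). For Tfrc (0.33 ± 0.36, 95% interval −0.41 to 1.08) and Ppargc1b (0.12 ± 0.31, interval −0.52 to 0.77) the difference was not called. Without the 6-month large-cell replicate 2 the 5 calls stood, with values of −1.75 for Slc40a1, −1.05 for Fth1, −1.12 for Ftl1, −1.24 for Hmox1 and 1.29 for Steap4 (adjusted p at most 0.0204). Without large-cell replicate 1 Slc11a2 was called as well (0.54, adjusted p = 0.0302). Fitted on these 4 groups alone, Fth1 and Steap4 were no longer called (adjusted p = 0.0801 and 0.0517). Marker genes of stromal cells and osteoblasts moved in opposite directions at the 2 ages. Their sum over 8 genes was 2146 to 2600.1 TPM in large-cell and 5939.9 to 7046 TPM in 2-day libraries at 6 months, but 4586 to 5664 TPM in large-cell and 1895 to 2545 TPM in 2-day libraries at 20 months, and 5 of 6 tested markers were called higher in the same age test. Other markers moved in that test as well. Of 9 osteoclast markers 1 was called higher and 5 lower (median −1.40), with sums of 17923 to 27861 TPM in large-cell and 734 to 760.2 TPM in 2-day libraries at 20 months, and 9349 to 14481 TPM in large-cell and 307 to 522 TPM in 2-day libraries at 6 months. Of 3 tested neutrophil markers 2 were called lower (median −2.37), and of 7 macrophage markers 2 (median −0.41). Their part in the result was not tested. In bulk RNA, fewer cells of a type and less RNA per cell cannot be told apart.

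**Figure D3:**
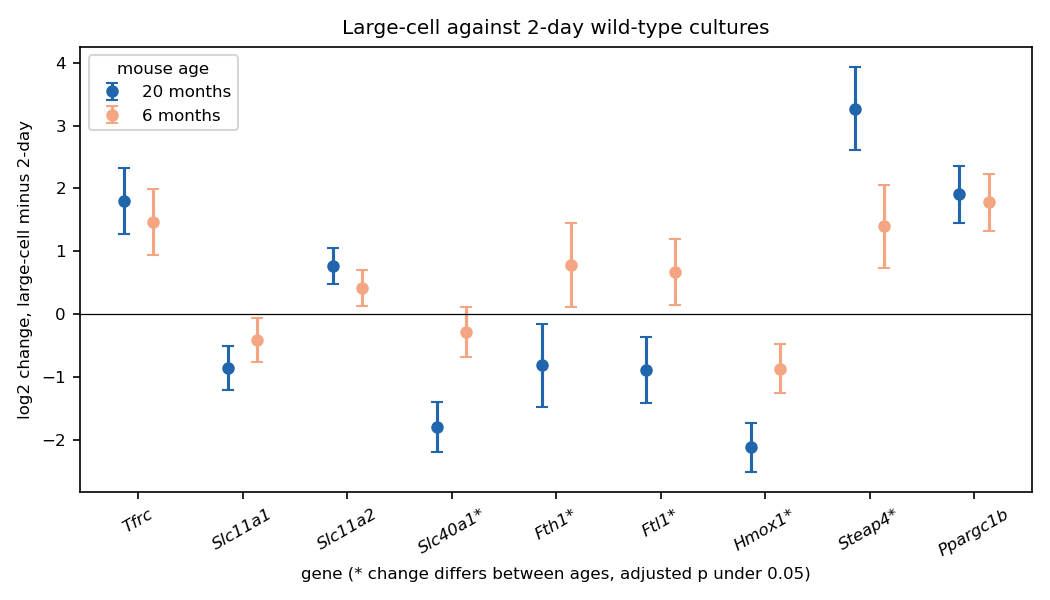
Log2 difference of large-cell minus 2-day wild-type cultures for each of the 9 genes, at 20 and at 6 months, with 95% intervals from limma. An asterisk marks the 5 genes whose change differed between the ages; their intervals are apart, as for Slc40a1 (−1.80 at 20 and −0.29 at 6 months), while those of Ppargc1b nearly coincide (1.91 and 1.78).

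In 2-day cultures, none of the 9 members was called between 20 and 6 months, and 0 had an unadjusted p under 0.05, where 17.5% of all genes were called (9.32% higher and 8.23% lower). The limma differences lay between −0.10 for Slc40a1 (95% interval −0.50 to 0.31) and 0.41 for Fth1 (interval −0.26 to 1.07). In TPM the 20-month libraries lay above the 6-month ones for Tfrc (86.2 to 99.2 against 69.0 to 78.1 TPM). The same held for Fth1 (20150 to 22648 against 15281 to 16596 TPM) and Ftl1 (17233 to 17809 against 12808 to 14126 TPM), and the other members overlapped. Fitted on the 2-day groups alone, which have a smaller spread, Tfrc (0.34), Fth1 (0.41) and Ftl1 (0.39) were called (adjusted p = 0.000812 to 0.00797).

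Other iron genes were read from lists beside the members, whose counts stand against the 25% of all genes called higher and 24.9% lower at 6 months and the 17% higher and 19.6% lower at 20 months. No test of a list was made. Of 19 tested genes of iron-sulfur cluster assembly, which builds the cofactors of respiratory enzymes, 11 were higher and 0 lower in large-cell cultures at 6 months (median 0.64, against −0.00 over all genes), and 4 were higher and 0 lower at 20 months (median 0.07, against −0.03). They included Hscb, a co-chaperone of the pathway (1.56 at 6 and 0.84 at 20 months), and Fdxr, a reductase that supplies it with electrons (1.42 and 0.75). Of 18 heme genes 10 were higher and 2 lower at 6 months (median 0.45), and 6 were higher and 2 lower at 20 months (median 0.06). Blvrb, a biliverdin reductase downstream of heme oxygenase, had a difference of 1.45 at 6 months, and Alas1, the first enzyme of heme synthesis, one of −1.12 at 20 months. Of 14 genes of the NRF2 and BACH1 group, the factors that control Hmox1, 2 were higher and 3 lower at 6 months (median −0.25), and 0 were higher and 10 lower at 20 months (median −0.62), among them Txnrd1 (−1.45), Prdx1 (−1.56) and Gclm (−1.65). Of 19 genes of iron regulation and intake, 5 were higher and 7 lower at 6 months (median −0.18) and 4 higher and 3 lower at 20 months (median −0.03). Steap3, the main metalloreductase of the transferrin cycle, rose at each age (1.92 and 0.74), and Slc25a37, the mitochondrial iron importer mitoferrin-1, fell (−0.81 and −1.08). Of 12 genes of the PGC-1 programme 5 were higher and 1 lower at 6 months (median −0.03), a share called close to that of all genes, and 3 were higher and 1 lower at 20 months (median −0.30). Perm1, a partner of PGC-1, rose by 1.42 and 1.33, and Sirt3, a mitochondrial deacetylase, by 1.52 and 1.25.

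The ages were then compared within wild-type large-cell cultures, which share the 6-month and 1-month groups between comparisons. The 1-month libraries are those of female pattern, so age and sex pattern cannot be told apart in comparisons with 1 month. At 20 months Slc40a1, Fth1, Ftl1 and Hmox1 fell and Steap4 rose against each younger age, though all these calls against 6 months were lost when only the 2 groups were fitted. Slc40a1 was also called higher at 6 months than at 1 month, with libraries that overlapped in deposited TPM but not after scaling. At 6 months against 1 month 1 member was called, higher, where 9.57% of all genes were called (3.91% higher and 5.66% lower). At 20 against 6 months 2 were called higher and 4 lower, where 27.6% were called (11.4% higher and 16.2% lower). At 20 months against 1 month 1 was called higher and 4 lower, where 22.5% were called (8.58% higher and 13.9% lower).

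Slc40a1 had 8.04, 9.09 and 9.47 TPM at 1 month, 29.1, 7.39 and 14.2 TPM at 6 months and 5.67, 4.16 and 5.96 TPM at 20 months. The 20-month libraries lay below all others. In deposited TPM the 6-month libraries spanned the 1-month ones, and after scaling they lay above them. The difference was 0.82 ± 0.19 at 6 months against 1 month (limma adjusted p = 0.00942), −1.60 ± 0.19 at 20 against 6 months (adjusted p = 3.72e-06) and −0.78 ± 0.19 at 20 months against 1 month (adjusted p = 0.00474). With TPM as deposited the comparisons with 1 month were no longer called (0.67 and −0.66, adjusted p = 0.139 and 0.102). Fitted on the 2 groups alone, the difference of 6 months against 1 month was not called (adjusted p = 0.718). Without 6-month replicate 1 the 6-month difference was 0.49 (adjusted p = 0.0284), and Slc11a2 (−0.40, adjusted p = 0.0363) and Hmox1 (0.55, adjusted p = 0.0347) were then also called between 6 months and 1 month.

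Both ferritin chains were lowest at 20 months. Fth1 had 26029, 19582 and 16476 TPM at 1 month, and Ftl1 had 24011, 18225 and 17219 TPM, all above every 20-month library (8671 to 13361 TPM for Fth1 and 7957 to 9742 TPM for Ftl1). At 20 months Fth1 fell against 6 months by −1.20 ± 0.32 (limma adjusted p = 0.00932) and Ftl1 by −1.16 ± 0.26 (adjusted p = 0.00217). Against 1 month the falls were −0.999 ± 0.32 for Fth1 (adjusted p = 0.0276) and −1.29 ± 0.26 for Ftl1 (adjusted p = 0.000638). The Fth1 calls were the less firm. The one against 6 months was lost without 6-month replicate 2 (−0.64, adjusted p = 0.0745) or 20-month replicate 3 (−0.98, adjusted p = 0.0545), and the one against 1 month without 20-month replicates 1 or 3 or 1-month replicate 1 (−0.69 to −1.04, adjusted p = 0.0501 to 0.188). Ftl1 at 20 against 6 months was −0.73 without 6-month replicate 2 (adjusted p = 0.00939).

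Hmox1 had 1003, 1108 and 865 TPM at 1 month, and its 20-month libraries (492 to 819 TPM) lay below all 1-month and 6-month libraries. The fall was −1.17 ± 0.19 against 6 months (limma adjusted p = 9.53e-05) and −0.75 ± 0.19 against 1 month (adjusted p = 0.00477), of which the second was lost without 20-month replicate 3 (−0.54, adjusted p = 0.0609). Steap4 had 1.53, 1.47 and 2.93 TPM at 1 month, and its 20-month libraries (8.20 to 13.4 TPM) lay above every younger library. It rose by 1.81 ± 0.32 against 6 months (adjusted p = 0.000283; 1.22 without 6-month replicate 2) and by 1.86 ± 0.32 against 1 month (adjusted p = 0.000151). Slc11a2 had 29.7, 36.2 and 42.5 TPM at 1 month, and rose at 20 against 6 months by 0.53 ± 0.14 (adjusted p = 0.00841), a call lost without 6-month replicate 2 (0.39, adjusted p = 0.0603). Tfrc had 196, 227 and 279 TPM at 1 month, and Slc11a1 had 125, 142 and 170.2 TPM. Ppargc1b had 4.50, 6.13 and 8.34 TPM. None of these 3 was called between ages. The difference of Tfrc at 20 against 6 months, 0.67 ± 0.25, missed the threshold (adjusted p = 0.0520) and passed it with TPM as deposited (0.99, adjusted p = 0.0289), with median-ratio scaling (0.70, adjusted p = 0.0439) and without 20-month replicate 1 or 4 or 6-month replicate 1 (0.87 to 0.95, adjusted p = 0.00589 to 0.0368). Fitted on the 2 groups alone, none of the 20 against 6 months calls on members remained, and at 20 months against 1 month Fth1 (adjusted p = 0.0902) and Hmox1 (adjusted p = 0.0827) were lost. Stromal and osteoblast markers were higher at 20 months, 4586 to 5664 TPM against 2146 to 2600.1 TPM at 6 months and 1458 to 3344 TPM at 1 month, with 3 of 6 tested markers called higher in each comparison. Osteoclast markers were higher too, 17923 to 27861 TPM at 20 months against 9349 to 14481 TPM at 6 months and 10406 to 12851 TPM at 1 month, with 3 and 4 of 9 called higher. Their part in these results was not tested.

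Terc-/- large-cell cultures were next set against wild-type cultures of the same age. Slc11a1, Slc11a2 and Hmox1 rose in Terc-/- cultures at 1 month and at 6 months. Ftl1 and Ppargc1b were called higher at 1 month, by calls that were each lost without any 1 of 4 libraries, and Fth1 was not called at either age with all libraries. Of 9 members 5 were called higher and 0 lower at 1 month, where 30.9% of all genes were called (15.5% in each direction), and 3 higher and 0 lower at 6 months, where 28.7% were called (15.5% higher and 13.2% lower). At 1 month the wild-type libraries are those of female pattern, so genotype and sex pattern cannot be told apart there. Tfrc, the main uptake gene, was not called at either age (−0.33 at 1 month, 95% interval −0.86 to 0.20, and 0.05 at 6 months, interval −0.47 to 0.58).

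Slc11a1 had 353, 362 and 332 TPM in 1-month Terc-/- libraries, against 125, 142 and 170.2 TPM in 1-month wild-type libraries. At 6 months it had 285, 248 and 258 TPM in Terc-/- libraries, against 202, 74.1 and 131 TPM in wild-type libraries. Every Terc-/- library lay above every wild-type library of its age, and the rises were 1.30 ± 0.17 (limma adjusted p = 4.00e-06) and 0.93 ± 0.17 (adjusted p = 0.000220). Slc11a2 had 55.6, 59.1 and 58.3 TPM in Terc-/- and 29.7, 36.2 and 42.5 TPM in wild-type libraries at 1 month, and 70.3, 61.6 and 53.6 TPM in Terc-/- and 40.5, 15.7 and 29.0 TPM in wild-type libraries at 6 months. Again there was no overlap, and the rises were 0.71 ± 0.14 (adjusted p = 0.000434) and 1.05 ± 0.14 (adjusted p = 6.93e-06). Hmox1 had 2375, 2117 and 2395 TPM in Terc-/- and 1003, 1108 and 865 TPM in wild-type libraries at 1 month. At 6 months it had 2989, 2539 and 3861 TPM in Terc-/- and 1207, 867 and 1535 TPM in wild-type libraries. The groups were apart at each age, and the rise was 1.25 ± 0.19 at 1 month (adjusted p = 2.26e-05) and 1.26 ± 0.19 at 6 months (adjusted p = 2.76e-05). The 3 genes were called at 6 months without wild-type replicate 2 as well (0.78 for Slc11a1, 0.91 for Slc11a2 and 1.27 for Hmox1). Fitted on the 2 groups of 6 months alone, with that library in, none was called (adjusted p = 0.0856 to 0.124).

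Ferritin mRNA was higher in TPM in Terc-/- libraries, but its call depended on the 6-month wild-type replicate 2, which enters the spread that all comparisons share. Fth1 had 36741, 30908 and 28316 TPM in Terc-/- and 26029, 19582 and 16476 TPM in wild-type libraries at 1 month. At 6 months it had 34129, 29644 and 43879.7 TPM in Terc-/- and 15008, 32224 and 18228 TPM in wild-type libraries. In deposited TPM the groups were apart at 1 month and overlapped at 6 months through replicate 2. After scaling the groups overlapped at each age. The differences were 0.68 ± 0.32 (limma adjusted p = 0.113) and 0.64 ± 0.32 (adjusted p = 0.141). Without that library they were 0.68 (adjusted p = 0.0149) and 1.19 (adjusted p = 0.000758). With TPM as deposited they were 0.65 (adjusted p = 0.0205) and 0.78 (adjusted p = 0.00638), and without 1-month wild-type replicate 1 the 1-month difference was 1.00 (adjusted p = 0.0248). Ftl1 had 31222, 30926 and 29396 TPM in Terc-/- and 24011, 18225 and 17219 TPM in wild-type libraries at 1 month, and 25559.6, 24748 and 26704 TPM in Terc-/- and 12594, 21048 and 15115 TPM in wild-type libraries at 6 months. Neither pair overlapped. The rise was 0.67 ± 0.26 at 1 month (adjusted p = 0.0475), and the call was lost without Terc-/- replicate 1 or 3 or wild-type replicate 3 or 4 (0.50 to 0.65, adjusted p = 0.114 to 0.188) with a replicate block (adjusted p = 0.0608) and in the fit of the 2 groups alone (adjusted p = 0.153). At 6 months the difference was 0.55 ± 0.26 (adjusted p = 0.107), and 0.99 without wild-type replicate 2 (adjusted p = 0.000397).

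Ppargc1b had 10.5, 7.87 and 11.7 TPM in Terc-/- and 4.50, 6.13 and 8.34 TPM in wild-type libraries at 1 month, with an overlap in deposited TPM but not after scaling, and was called higher (0.64 ± 0.22, limma adjusted p = 0.0290). That call was lost without Terc-/- replicate 1 or 4 or wild-type replicate 1 or 3 (0.57 to 0.60, adjusted p = 0.0823 to 0.0907), and with TPM as deposited (0.61, adjusted p = 0.0968). At 6 months it had 11.8, 10.5 and 5.15 TPM in Terc-/- libraries, against a wild-type range of 4.60 to 10.8 TPM, and was not called (0.26, adjusted p = 0.393), but was without Terc-/- replicate 4 (0.57, adjusted p = 0.0436). Slc40a1 had 10.1, 11.0 and 11.4 TPM in 1-month and 14.2, 12.9 and 12.3 TPM in 6-month Terc-/- libraries. Its differences were 0.30 (adjusted p = 0.264) and −0.27 (adjusted p = 0.314), the second of which was −0.51 without wild-type replicate 2 (adjusted p = 0.0432). Steap4 had 1.62, 2.64 and 1.68 TPM in 1-month and 3.34, 2.86 and 1.40 TPM in 6-month Terc-/- libraries, within the spread of the wild-type libraries (0.05 and 0.21, adjusted p = 0.922 and 0.656). Tfrc had 167, 170.3 and 203 TPM in 1-month and 229, 237 and 105 TPM in 6-month Terc-/- libraries, which overlapped the wild-type libraries at each age.

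The genotype difference itself was not called as different between 6 months and 1 month for any member, with 0 members at an unadjusted p under 0.05 and 3.74% of all genes called. For Hmox1 the limma difference of the differences was 0.01 (95% interval −0.54 to 0.55), and for Slc11a1 −0.38 (interval −0.86 to 0.11). Within Terc-/- cultures 0 members were called between 6 months and 1 month, where 4.02% of all genes were called, and 2 had an unadjusted p under 0.05, Slc11a1 (−0.41, adjusted p = 0.233) and Hmox1 (0.43, adjusted p = 0.282). Age and the Eif2s3y split cannot be told apart within these cultures.

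Markers of other cells moved with the genotype. The 7 macrophage markers summed to 3139.9 to 3651 TPM in Terc-/- and 2204 to 2226 TPM in wild-type libraries at 1 month, with 3 of 7 called higher and 1 lower, and to 3162 to 3674 TPM in Terc-/- and 1149.6 to 2623 TPM in wild-type libraries at 6 months, with 4 called higher. The 8 stromal and osteoblast markers summed to 270.2 to 554 TPM in Terc-/- and 1458 to 3344 TPM in wild-type libraries at 1 month, and to 327 to 1802 TPM in Terc-/- and 2146 to 2600.1 TPM in wild-type libraries at 6 months, with 5 of 6 tested markers called lower at each age. At 1 month the 9 osteoclast markers summed to 9010 to 11348 TPM in Terc-/- and 10406 to 12851 TPM in wild-type libraries. Of them 2 were called higher and 0 lower. At 6 months their sums were 4565 to 11159 TPM and 9349 to 14481 TPM, and 0 were called. Terc-/- replicate 4 of 6 months had 1860 TPM of Acp5, against 4831 and 5403 TPM in replicates 1 and 2. Of 3 tested neutrophil markers 0 were called at 1 month and 2 were higher at 6 months. The part of all these markers in the results on the iron genes was not tested.

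Counts on the other lists stand against 15.5% of all genes called higher at each age and 15.5% and 13.2% called lower. Heme genes were called higher 5 times and lower 0 times of 18 in 1-month Terc-/- cultures (median 0.21, against 0.01 over all genes), and 3 and 1 times at 6 months (median 0.02, against 0.02). Slc48a1, which moves heme out of lysosomes, rose by 1.10 ± 0.14 at 1 month (on average 289.8 TPM in Terc-/- and 138.5 TPM in wild-type libraries) and by 1.32 ± 0.14 at 6 months. Alas1 rose by 0.61 and 1.19, and Abcb6, a porphyrin transporter, by 1.18 at 1 month. Of 14 NRF2 and BACH1 genes 3 were higher and 1 lower at 1 month (median 0.10) and 6 were higher and 0 lower at 6 months (median 0.41). Gclm, a subunit of the glutathione-making ligase, rose at each age (0.96 and 1.52), while Nqo1 fell at 1 month (−0.51) and rose at 6 months (1.47). Of 19 regulation and intake genes 4 were higher and 3 lower at 1 month (median 0.03) and 7 higher and 4 lower at 6 months (median 0.24). The metalloreductase family members Steap1 (−1.55 and −1.38) and Steap2 (−1.66 and −1.61) fell at each age, whereas their relative Steap4 was not called. Of 19 iron-sulfur genes 5 were higher and 1 lower at 1 month (median 0.37), and 1 was higher and 2 lower at 6 months (median 0.00). Of 12 PGC-1 genes 4 were higher and 0 lower at 1 month (median 0.08) and 2 higher and 1 lower at 6 months (median −0.06), with Perm1 (0.90 and 0.82) and Esrra, the receptor that PGC-1 proteins coactivate (0.84 and 0.73), higher at each age.

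The marked large-cell libraries were last set against unmarked large-cell libraries of the same genotype and age. The gaiwei-marked libraries have the male pattern and the unmarked 1-month wild-type ones the female pattern, so mark and sex pattern cannot be told apart there. In all 3 such comparisons Tfrc, Steap4 and Ppargc1b fell and Slc11a1 and Hmox1 rose. Of 9 members 4 were called higher and 3 lower in 519-marked 1-month Terc-/- libraries, where 33.8% of all genes were called (19.1% higher and 14.8% lower). In 519-marked 6-month Terc-/- libraries 2 were called higher and 3 lower, where 28.3% were called (15.3% higher and 13% lower). In gaiwei-marked wild-type libraries 6 were called higher and 3 lower, where 46.6% were called (24.7% higher and 22% lower).

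Tfrc had 28.5, 24.5 and 30.3 TPM in 519-marked 1-month Terc-/- libraries, against 167, 170.3 and 203 TPM in unmarked ones. It had 36.7, 27.2 and 27.6 TPM in 519-marked 6-month Terc-/- libraries, against 229, 237 and 105 TPM in unmarked ones, and 26.3, 20.7 and 31.2 TPM in gaiwei-marked wild-type libraries, against 196, 227 and 279 TPM in unmarked ones. Every marked library lay below every unmarked one, and below the 2-day libraries of either age (69.0 to 99.2 TPM). The falls were −2.18 ± 0.25, −2.23 ± 0.25 and −2.56 ± 0.25 (limma adjusted p = 3.31e-07, 3.01e-07 and 1.46e-08). Ppargc1b had 0.662, 0.654 and 0.447 TPM in 519-marked 1-month, 0.987, 0.809 and 1.43 TPM in 519-marked 6-month and 0.624, 0.376 and 1.16 TPM in gaiwei-marked libraries, all below the unmarked libraries. Its falls were −2.55, −2.04 and −1.79 (adjusted p = 2.89e-09, 1.29e-07 and 3.85e-07). Steap4 was nearly absent, at 0 to 0.304 TPM in the 9 marked libraries (−1.48, −1.34 and −1.18, adjusted p = 0.000757, 0.00225 and 0.00375).

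Slc11a1 had 679, 545 and 569 TPM in 519-marked 1-month Terc-/- libraries and 605, 686 and 678 TPM in 519-marked 6-month ones. In gaiwei-marked wild-type libraries it had 454, 535 and 617 TPM. All 9 values lay above all 15 unmarked large-cell libraries, the highest of which was 362 TPM. The rises were 1.26, 1.62 and 2.45 (SE 0.17 each, limma adjusted p = 2.07e-06, 6.56e-08 and 3.09e-11). Hmox1 had 6731, 6345 and 6494 TPM in 519-marked 1-month, 5486, 5789 and 5833 TPM in 519-marked 6-month and 4974, 6068 and 5988 TPM in gaiwei-marked libraries, above every unmarked library of any group. It rose by 2.00, 1.20 and 3.10 (SE 0.19 each, adjusted p = 1.04e-08, 2.40e-05 and 4.32e-12).

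Fth1 had 49626, 53776 and 52175 TPM in 519-marked 1-month, 43944, 47591 and 47042 TPM in 519-marked 6-month and 45597, 48434 and 45463 TPM in gaiwei-marked libraries, again above every unmarked library. It rose by 1.20 ± 0.32 (limma adjusted p = 0.00553) and 1.77 ± 0.32 (adjusted p = 7.84e-05) in 519-marked 1-month and gaiwei-marked libraries. In 519-marked 6-month libraries the difference was 0.69 ± 0.32 (adjusted p = 0.119), or 0.69 with an adjusted p of 0.0149 once the 6-month wild-type replicate 2 was left out of the shared fit. Ftl1 did not follow it in each comparison. It had 30323, 34060.2 and 31902 TPM in 519-marked 1-month, 19086, 15919 and 19906 TPM in 519-marked 6-month and 27138, 21567 and 27033 TPM in gaiwei-marked libraries. It was called higher in gaiwei-marked libraries (0.94 ± 0.26, adjusted p = 0.00415). In deposited TPM these overlapped the unmarked wild-type libraries (17219 to 24011 TPM), but after scaling they did not. Ftl1 was also called higher there in each of 13 fits with other processing or 1 library left out. Its difference then ranged from 0.36 to 1.22, so its size rests on these choices. In 519-marked 1-month libraries it was not called (0.56, adjusted p = 0.0936; 0.56 with an adjusted p of 0.00910 without the same replicate 2). In 519-marked 6-month libraries it was not called either (−0.19, adjusted p = 0.651), but was lower with TPM as deposited (−0.49, adjusted p = 0.00881).

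Slc40a1 had 19.5, 15.3 and 21.7 TPM in 519-marked 1-month libraries, above all 3 unmarked ones (10.1 to 11.4 TPM), and rose by 1.19 ± 0.19 (limma adjusted p = 3.31e-05). In 519-marked 6-month libraries it had 13.98, 10.85 and 13.66 TPM, which overlapped the unmarked ones, and was not called (0.25, adjusted p = 0.383; −0.04 with TPM as deposited). In gaiwei-marked libraries it had 10.1, 7.67 and 14.7 TPM, which overlapped the unmarked wild-type libraries, and the call (0.75 ± 0.19, adjusted p = 0.00282) was lost with TPM as deposited (0.22, adjusted p = 0.504). Slc11a2 had 50.2, 41.0 and 50.5 TPM in 519-marked 1-month and 50.0, 55.0 and 49.2 TPM in 519-marked 6-month libraries and was not called (0.19 and 0.05, adjusted p = 0.301 and 0.840). In TPM the 519-marked 1-month libraries lay below all unmarked ones (55.6 to 59.1 TPM), and with TPM as deposited the differences were −0.29 and −0.25, so their sign rests on the scaling. In gaiwei-marked libraries it had 35.2, 43.5 and 42.2 TPM, and its call (0.73 ± 0.14, adjusted p = 0.000136) was lost with TPM as deposited (0.16, adjusted p = 0.508).

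Cell markers moved strongly with the mark. The 9 osteoclast markers summed to 653 to 2142 TPM in marked and 4565 to 27861 TPM in unmarked large-cell libraries, with 9, 8 and 8 of 9 called lower in the 3 comparisons. The 7 macrophage markers summed to 4086 to 5207 TPM in marked and 1149.6 to 3674 TPM in unmarked libraries, with 4, 2 and 4 called higher and 0, 2 and 0 lower. The 7 neutrophil markers summed to 1199 to 3295 TPM in marked and 2.99 to 202 TPM in unmarked libraries. Of the 3 tested, 2 were called higher in each of the 3 comparisons. Nearly all of the sum was S100a8, at 1193 to 3293 TPM in marked libraries. Camp was at 2.78 to 7.96 TPM in marked and 0 to 1.43 TPM in unmarked large-cell libraries, while S100a9, the partner of S100a8, was at most 2.65 TPM in marked libraries, Mpo at most 0.0239 TPM and Elane at 0. Stromal and osteoblast markers summed to 181 to 538 TPM in marked and 270.2 to 5664 TPM in unmarked libraries, with 2, 1 and 6 of 6 tested called lower in the 3 comparisons. In 6-month Terc-/- libraries their sums overlapped, at 517 to 538 TPM in marked and 327 to 1802 TPM in unmarked ones. What the marks stand for and these differences cannot be told apart, and the part of other cells in the results on the iron genes was not tested.

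In the same 3 comparisons, where 19.1%, 15.3% and 24.7% of all genes were called higher and 14.8%, 13% and 22% lower, 9, 7 and 9 of 14 NRF2 and BACH1 genes were called higher and 0 lower (medians 0.52, 0.37 and 0.57, against 0.02, 0.01 and 0.01 over all genes). Slc7a11, the cystine importer, rose by 2.43, 2.29 and 2.51. Of 19 regulation and intake genes 7, 4 and 9 were higher and 2, 1 and 5 lower (medians 0.25, −0.05 and 0.30). Fbxl5, the iron-sensing ligase subunit that removes iron regulatory protein, rose by 1.43, 2.45 and 2.26, and Slc25a37 by 0.92, 1.02 and 1.31. Of 18 heme genes 5, 2 and 7 were higher and 4, 4 and 6 lower (medians 0.20, −0.06 and 0.37), with Slc48a1 higher by 1.01, 0.72 and 1.91 and Pgrmc1, a heme-binding protein gene, lower (−0.78, −0.53 and −0.84). Of 19 iron-sulfur genes 1, 0 and 8 were higher and 2, 2 and 3 lower (medians −0.03, −0.17 and 0.23), and the chaperone gene Hspa9 was lower each time (−0.39, −0.37 and −0.59). Of 12 PGC-1 genes 0, 0 and 1 were higher and 3, 2 and 3 lower (medians −0.34, −0.17 and −0.18), with Twnk, the mitochondrial DNA helicase, lower each time (−0.63, −0.57 and −0.70).

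Among the marked libraries themselves, 519-marked Terc-/- and gaiwei-marked wild-type libraries of 1 month were close. Genotype, mark and the Eif2s3y split cannot be told apart between them. Of 9 members 1 was called higher, Slc40a1 (0.74 ± 0.19, limma adjusted p = 0.0320), where 3.42% of all genes were called (1.55% higher and 1.87% lower). That call was lost without 519-marked replicate 1 or 3 or gaiwei-marked replicate 1 or 2 (0.60 to 0.74, adjusted p up to 0.232), and with TPM as deposited (0.78, adjusted p = 0.193). Slc11a1 (0.11, 95% interval −0.23 to 0.46) and Hmox1 (0.15, interval −0.23 to 0.54), which rose with the genotype in unmarked cultures, were not called. Whether the genotype difference was larger in unmarked than in marked libraries was tested in a comparison added after the data had been seen. It was larger for 2 members, by 1.19 ± 0.24 for Slc11a1 (adjusted p = 0.00222) and by 1.10 ± 0.26 for Hmox1 (adjusted p = 0.00878). Of all genes 10.7% were called, 5.03% with a positive and 5.63% with a negative signed value of unmarked minus marked difference. For Slc11a2 the difference was 0.54 (adjusted p = 0.0837, or 0.0370 without 6-month wild-type replicate 2). The marks differ by genotype and the unmarked groups differ in sex pattern, so mark, sex and genotype cannot be told apart here. In 519-marked libraries 2 members fell at 6 months against 1 month, where 23.8% of all genes were called (12.6% higher and 11.2% lower). They were Ftl1 (−0.999 ± 0.26, adjusted p = 0.00674) and Slc40a1 (−0.69 ± 0.19, adjusted p = 0.0126). Age and the Eif2s3y split cannot be told apart in this comparison. The call on Slc40a1 was lost without 1-month replicate 3 or 6-month replicate 2 (adjusted p = 0.0647 and 0.0669) and with TPM as deposited (−0.51, adjusted p = 0.204). With 0.1 TPM added Steap4 was called higher (1.68, adjusted p = 0.0390), and in the fit of the 2 groups alone Fth1 (−0.35, adjusted p = 0.0226) and Hmox1 (−0.38, adjusted p = 0.00573) were called lower. Stromal and osteoblast markers summed to 517 to 538 TPM at 6 months and 181 to 212 TPM at 1 month in these libraries, with 4 of 6 tested called higher. Osteoclast markers summed to 1228 to 2142 TPM at 6 months and 653 to 686 TPM at 1 month, with 2 of 9 called higher, and 2 of 7 macrophage markers were called lower. Their part in these results was not tested.

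**Figure D4:**
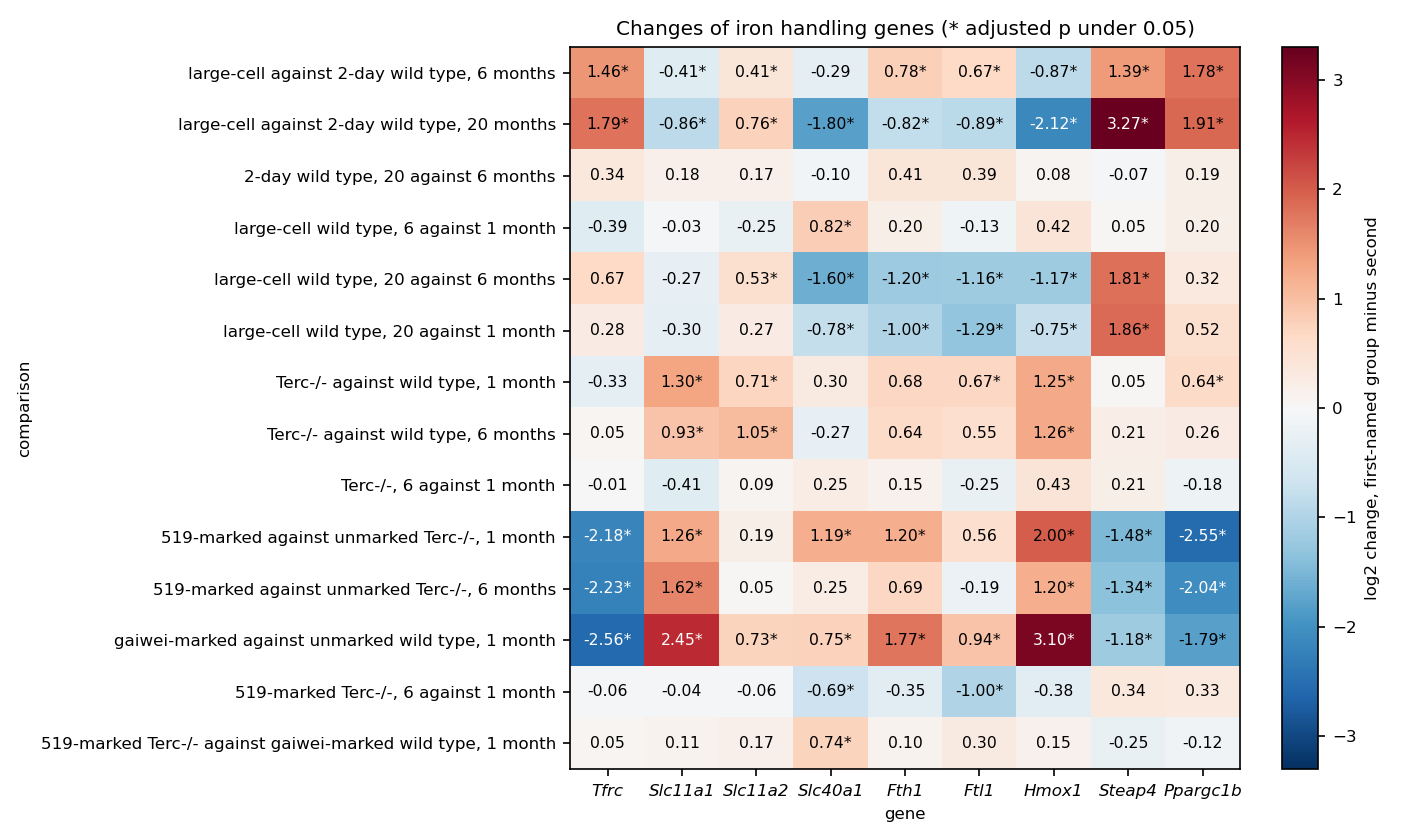
Log2 changes of the 9 iron handling genes (columns) in 14 comparisons of group pairs (rows), coloured from lower to higher in the first-named group, with an asterisk where the limma adjusted p is under 0.05. Slc11a1 and Hmox1 are higher in unmarked Terc-/- than in unmarked wild-type libraries and in marked than in unmarked ones, and Tfrc and Ppargc1b are lower in marked libraries (−2.18 to −2.56 and −1.79 to −2.55).

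The order of the 10 group means shows which neighbours could not be separated. Tfrc ran from 329 ± 133 TPM in 20-month wild-type to 178 ± 99.6 TPM in 6-month wild-type large-cell cultures, with overlapping ranges between all neighbours of the 5 unmarked large-cell groups. Next came 2-day cultures (94.7 ± 7.30 TPM at 20 and 74.7 ± 4.99 TPM at 6 months, ranges apart), of which the 20-month group overlapped the 6-month large-cell group through its replicate 2, and the marked groups (26.0 ± 5.25 to 30.5 ± 5.40 TPM, overlapping). Hmox1 ran the other way, from 6523 ± 195 TPM in 519-marked 1-month libraries to 666 ± 165 TPM in 20-month wild-type large-cell libraries. Its marked groups were apart from 6-month Terc-/- (3129 ± 672 TPM) and 2-day cultures (3011 ± 172 TPM at 20 and 2845 ± 164 TPM at 6 months), which overlapped each other, and these from 1-month Terc-/- cultures (2296 ± 155 TPM) and from wild-type large-cell cultures. Slc40a1 was highest in 2-day cultures (24.0 ± 2.87 TPM at 6 and 22.4 ± 2.39 TPM at 20 months) and overlapped from one neighbour to the next down to 1-month wild-type large-cell cultures (8.87 ± 0.737 TPM), with the 20-month group (5.27 ± 0.963 TPM) apart below.

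Across the 10 group means the members fell into sets that moved alike, given here as a description since the points share libraries and scaling. Tfrc and Ppargc1b had a Pearson r of 0.951, Slc11a1 and Hmox1 of 0.949, Fth1 and Ftl1 of 0.928 and Fth1 and Slc11a1 of 0.927. Tfrc ran against Hmox1 (−0.888) and Steap4 against Slc40a1 (−0.898). The 3 genes with the pattern most like each member were sought among tested protein-coding genes, without the members, predicted genes, Rik clones and pseudogenes. Over the 10 group means they were Srd5a1, Tbc1d16 and Oxct1 for Tfrc, and Plek, Pid1 and Car5b for Slc11a1. They were Prex1, Rab31 and Retreg2 for Slc11a2, and Rangap1, Raly and Tcf19 for Slc40a1. For Fth1 they were Afp, Cyb5a and Nfkbib, for Ftl1 Creg1, Cbr3 and Spp1, for Hmox1 Fastkd3, Glrx and Il17ra, for Steap4 Prdm9, Hyal1 and Serpind1, and for Ppargc1b Ssc5d, Plxna4 and Spns2. The highest r of a member's list was 0.950 for Slc40a1, the lowest of the 9 members, and 0.994 for Ppargc1b. Over the 30 libraries the r of some of these genes was lower, at 0.651 for Raly with Slc40a1 and 0.739 for Prdm9 with Steap4.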

How the data were processed

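RNA from 30 libraries in 10 groups was measured by sequencing of poly(A)-selected RNA. The authors deposited TPM per Ensembl gene in 5 tables. HTSeq and mm10 are named in the submitters' processing notes, without versions, and for the aligner and the annotation the sources used here give none. GENCODE M21, which matched 45143 of 45706 identifiers, served here for symbols and UTRs. A gene was tested if it averaged 1 TPM or more (12614 genes). TPM was scaled between libraries by a trimmed mean over all genes (trimming 30% by log ratio and 5% by level on either side, factors 0.656 to 1.29), 1 TPM was added, and log2 values were fitted in limma 3.58.1 (R 4.3.3) with 10 group means, trend and robust settings, and Benjamini-Hochberg adjustment per comparison at 0.05. Levels in the text are deposited TPM. The script was tested on simulated data. Tables and figures were made with Python 3.11.15, pandas 2.3.3, numpy 2.4.6 and matplotlib 3.10.9. No 2 libraries held identical values.

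The members, lists, scaling and comparisons were chosen with earlier results of these data known. All members are named, and from each other list up to 4 called genes of smallest p per main comparison were eligible to be named, and for each member the 3 genes of highest correlation over group means. Alternatives were TPM as deposited, median-ratio scaling, 0.1 TPM added, all genes kept, the replicate number as a block, fits on the compared groups alone, and each library left out. Leaving 6-month wild-type replicate 2 out of comparisons without that group, and the genotype by mark test, were added after seeing the data.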

Additional observations from a re-analysis of the deposited data

Results flagged for a closer look

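The change from 2-day to large-cell wild-type cultures differed between 20 and 6 months, by limma's test of the difference itself, for 5 iron genes. The 20-month change was lower for Slc40a1 (−1.51), Fth1 (−1.60), Ftl1 (−1.56) and Hmox1 (−1.25) and higher for Steap4 (1.88), all on the log2 scale. Fitted on these 4 groups alone, Fth1 and Steap4 were no longer called (limma adjusted p = 0.0801 and 0.0517). The test shares its large-cell libraries with the comparison of 20 against 6 months, so these are not separate evidence. Stromal and osteoblast, osteoclast, neutrophil and macrophage markers were also called in this test, and their part was not tested.

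The difference of Terc-/- from wild type at 1 month was larger in unmarked than in marked libraries for Slc11a1 (1.19) and Hmox1 (1.10), in a comparison added after the data had been seen, in which mark, sex pattern and genotype cannot be told apart.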

How the results depend on the processing

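Of 153 results on members in 17 comparisons 68 were called, 40 of them under every alternative, and 20 of the other 85 were called under some alternative. No called direction reversed, and 9 uncalled differences changed sign with TPM as deposited. With TPM as deposited 137 of 153 were on the same side of the threshold, with median-ratio scaling 150, with 0.1 TPM added 151, without the filter 146, in fits of only the groups compared 124, and with single libraries left out 1120 of 1179. With TPM as deposited the number of members called was 0 for wild type at 6 months against 1 month, 5 for Terc-/- at 6 months, 1 for 519-marked libraries at 6 months against 1 month and 0 for marked Terc-/- against marked wild type. Without the filter it was 5 for large-cell against 2-day cultures at 6 months, 3 for Terc-/- at 1 month and 0 for marked Terc-/- against marked wild type. In fits of only the groups compared it was 2 for large-cell against 2-day cultures at 6 months, 3 for 2-day cultures between ages, 0, 0 and 3 for wild type at 6 months against 1 month, 20 against 6 months and 20 months against 1 month, 0 for Terc-/- at 6 months, 4 for 519-marked libraries between ages, 0 for marked Terc-/- against marked wild type and 3 for the age difference of the large-cell change. With each library left out it ranged from 4 to 8 for large-cell against 2-day cultures at 6 months, 3 to 5 for Terc-/- at 1 month, 3 to 6 at 6 months, 1 to 3 for wild type at 6 months against 1 month, 4 to 7 at 20 against 6 months, 3 to 5 at 20 months against 1 month, 1 to 2 for 519-marked libraries between ages and 0 to 1 for marked Terc-/- against marked wild type.

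Scaling set the balance of directions over all genes. With TPM as deposited the median log2 difference of all genes was −0.39, −0.26 and −0.49 in 519-marked 1-month, 519-marked 6-month and gaiwei-marked libraries, −0.36 and −0.11 in large-cell against 2-day cultures at 6 and 20 months, −0.16 and 0.27 in wild type at 6 months against 1 month and 20 against 6 months, 0.13 in Terc-/- at 6 months, 0.14 in 519-marked libraries between ages, and 0.24 and 0.17 in the age differences of the large-cell and genotype changes. The higher and lower calls over all genes were then 878 and 4812, 884 and 3418, and 1225 and 6250 for the marks (2405 and 1861, 1933 and 1639, and 3113 and 2770 as reported), 1627 and 5323 for large-cell cultures at 6 months (3155 and 3144), 2519 and 1019 for wild type at 20 against 6 months (1435 and 2047), 1248 and 1076 at 20 months against 1 month (1082 and 1755), 1393 and 729 for 519-marked libraries between ages (1592 and 1412), and 1753 and 1022 for the age difference of the large-cell change (1410 and 1810).

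In fits of only the groups compared all-gene calls were 1925 for large-cell cultures at 6 months (6299 as reported), 4689 for 2-day cultures between ages (2213), 26, 162 and 1814 for wild type at 6 months against 1 month, 20 against 6 months and 20 months against 1 month (1207, 3482 and 2837), 2589 and 91 for Terc-/- at 1 month and 6 months (3900 and 3624), 155 and 5676 for Terc-/- and 519-marked Terc-/- between ages (507 and 3004), and 2048 and 60 for the age differences of the large-cell and genotype changes (3220 and 472). TPM as deposited gave 282 for marked Terc-/- against marked wild type (431). With single libraries left out the counts ranged from 579 to 4346 for wild type at 6 months against 1 month, 2094 to 6376 at 20 against 6 months, 228 to 794 for Terc-/- between ages, 201 to 426 for marked Terc-/- against marked wild type and 273 to 1651 for the age difference of the genotype change. The causes were not tested.

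With the replicate number as a block 150 of 153 results on members were on the same side of the threshold, and 3 calls were lost: Fth1 in large-cell cultures at 6 months (0.77, adjusted p = 0.0634) and 20 months (−0.76, adjusted p = 0.0880), and Ftl1 in Terc-/- at 1 month (0.67, adjusted p = 0.0608). Deviations of same-numbered libraries correlated at −0.596 to 0.327 over 33 pairs, which paired no comparison. TPM without counts gives no depth, so no floor can be set for Steap4 where it is listed at or near 0.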

Other observations

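Heme, iron-sulfur and NRF2 and BACH1 genes were also counted by age in wild-type large-cell cultures, with no test of a list. At 20 against 6 months 1 of 18 heme genes was called higher and 6 lower (median −0.39), 1 of 19 iron-sulfur cluster genes higher and 6 lower (median −0.33), and 0 of 14 NRF2 and BACH1 genes higher and 7 lower (median −0.49), where 11.4% of all genes were called higher and 16.2% lower. At 20 months against 1 month 2 heme genes were called higher and 2 lower, 0 iron-sulfur genes higher and 1 lower, and 0 NRF2 and BACH1 genes higher and 8 lower, where 8.58% of all genes were called higher and 13.9% lower. The heme count is then near the share of all genes and the iron-sulfur count below it. In the test of whether the large-cell change differed with age, 3 heme genes were higher and 8 lower (median −0.44), 1 iron-sulfur gene higher and 4 lower (median −0.60), and 0 NRF2 and BACH1 genes higher and 5 lower (median −0.57), where 11.2% of all genes were called higher and 14.3% lower.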
